A study of Macaca mulatta with 18 samples.

Results

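The Wnt and bone morphogenetic protein (BMP) genes described here are all genes of the RNA table whose macaque symbol begins with WNT, FZD or BMPR, or with SFRP, DKK, BMP or SMAD followed by a number, together with LRP5, LRP6, AXIN1, CTNNB1, LEF1, TCF7L1, TCF7L2 and NOG. This rule took 51 of the 22345 genes measured. It works on names alone and used no expression value, but it and the lists of other genes below were set with earlier results of these data known. The reference table of symbols holds 67 symbols that the rule takes, and the other 16, among them AXIN2, WNT3A, WNT5A, BMP2 and SMAD7, are not analysed here. The samples were brain of wild-type rhesus macaque fetuses at embryonic day 84, of 2 tissues labelled GZ and CP, with no fuller name in the labels. RNA-seq had 3 libraries of GZ and 3 of CP, numbered 1 to 3 in each tissue. The series also holds Hi-C, DNase-seq and CTCF data, which were not used for these genes.

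Wnt proteins are secreted lipid-modified ligands that bind Frizzled receptors and the co-receptors LRP5 and LRP6 at the cell surface. In the canonical branch this stabilises beta-catenin, the product of CTNNB1, which then acts in the nucleus with factors of the TCF/LEF family, and the scaffold AXIN1 takes part in its destruction. BMP ligands bind BMPR1A or BMPR1B together with a type II receptor such as BMPR2, and the receptors phosphorylate SMAD1, SMAD5 or SMAD9, which enter the nucleus with SMAD4. In the developing forebrain both pathways are known from dorsal midline signalling centres and from the control of progenitor division and neuronal differentiation.

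Values are the authors' normalized expression on the log2 FPKM scale, that is scaled to transcript length and to library size. On this scale levels of different genes are set side by side here. The gene models behind the lengths are not named, and how well levels compare between genes was not tested. Read depth is unknown, since the table holds no counts, and no counting interval is given. Library medians over all genes ran from 1.82 to 1.87. Whole profiles correlated at 0.971 to 0.987 between libraries of 1 tissue and at 0.895 to 0.935 across tissues. The sample titles give both tissues the same library numbers, but the labels do not say whether a number stands for an animal. The main fit did not pair libraries by number, and a fit with the number as a block is given at the end. The p-values therefore reflect library-to-library spread, part of which may be technical. The median of 8 Y-linked genes was 3.34 and 3.63 (log2 FPKM) in CP and GZ of number 2 and -1.69 and -1.70 in those of number 3, but 1.40 and -0.17 in CP and GZ of number 1. The libraries numbered 1 thus differed from each other where the others matched. Results on Wnt and BMP genes and counts of the other lists are also given without both of them where that changes a call. For some genes they are given where it does not.

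The tissue labels were checked against marker genes. All 4 genes of cycling cells were higher in GZ, with a summed FPKM of 25.5 to 48.7 in the CP libraries and 91.1 to 192 in GZ. Of 6 neuronal genes 5 were higher in CP (1391 to 1453 against 786 to 926). All 6 measured genes of endothelium and pericytes were higher in CP (96.7 to 137 against 22.5 to 49.4), and all 3 measured genes of the ventral telencephalon were higher in GZ (52.4 to 62.4 against 152 to 240). For 6 genes of meninges and fibroblasts the summed FPKM was 72.5 to 93.6 in CP and 80.4 to 116 in GZ. The part of these cell types in the results on Wnt and BMP genes was not tested. In bulk tissue, a larger number of cells of one type and more RNA per cell cannot be told apart, here and in all results below.

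Of the 51 genes, 38 had a mean over the 6 libraries of 0 or more on the log2 scale and were tested. GZ was compared with CP by limma's moderated test, fitted to all 13460 genes that met the same limit, with Benjamini-Hochberg adjustment over all of them. A gene is called higher where its adjusted p is under 0.05. Of the 38 genes, 15 (39.5%) were higher in GZ, 6 (15.8%) higher in CP and 17 did not pass. Among all genes tested 24.5% were called towards GZ and 20.9% towards CP, 45.4% in all. A difference of at least 1 on the log2 scale was called towards GZ for 4 genes (BMP7, SFRP1, FZD2 and FZD8) and towards CP for 4 (SMAD6, LEF1, WNT10B and FZD9), against 5.41% and 7.04% of all genes tested. The median difference, GZ minus CP, was 0.28 for the 38 genes and 0.05 for all genes tested. In none of the 21 called genes did the 3 GZ and 3 CP values overlap, which the call itself makes likely. Whether called or not, 56.4% of all genes tested showed no overlap, a share to set beside the 38 genes only. All GZ values lay above all CP values in 19 of the 38 genes (30.9% of all genes tested) and below them in 7 (25.5%). The folds of the genes higher in GZ ran from 1.25 to 3.66 and those of the genes higher in CP from 1.71 to 4.15. WNT10B, SMAD6 and FZD9, which are 3 of the 6 genes higher in CP, had a GZ mean under 0 and met the limit on low values only through their CP values, so they had to differ to be tested. Without both libraries numbered 1 10 genes were called towards GZ and 6 towards CP, while 12.2% and 12.7% of all genes tested were (25% in all).

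**Figure D1:**
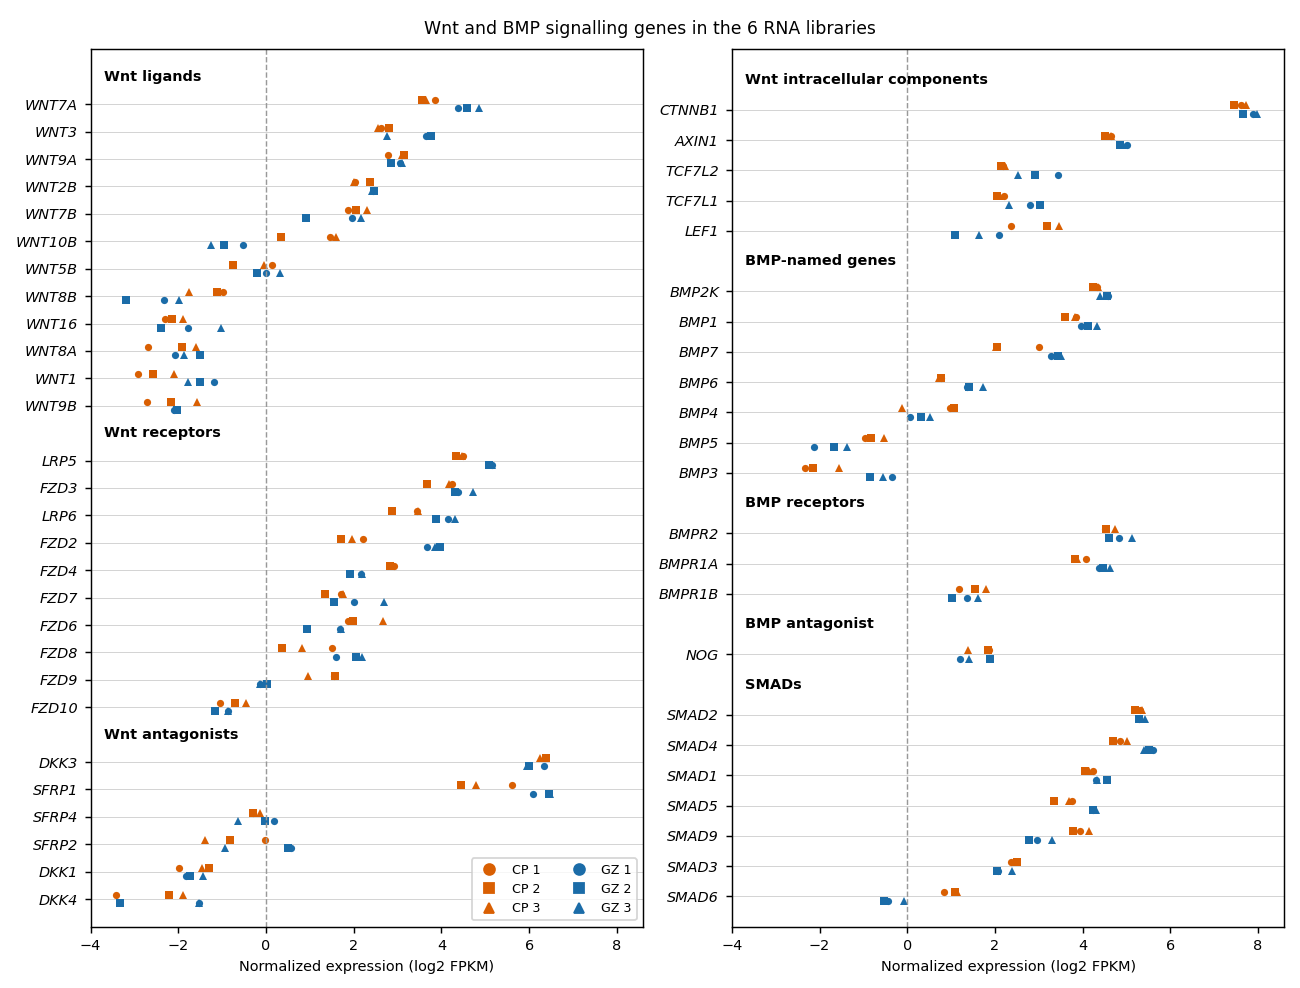
Normalized expression (horizontal axis, log2 FPKM) of the 51 Wnt and BMP genes in each of the 6 RNA libraries, grouped by role and ordered by mean level. Orange marks are CP and blue marks GZ, the marker shape gives the library number, and the dashed line is the limit of 0 applied to the mean of the 6 libraries; CTNNB1 lies highest, between 7.46 and 7.96, and FZD2 shows a wide gap between its CP and GZ values.

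Of the 6 tested Wnt ligands 1 was higher in GZ, 1 higher in CP and 4 did not pass, against 24.5% and 20.9% of all genes tested. WNT7A (ENSMMUG00000018445), a ligand of neural progenitors that is also needed for brain vessels, was the most abundant of the 12 measured ligands in both tissues. Its log2 FPKM was 3.86, 3.57 and 3.64 in CP libraries 1 to 3 and 4.38, 4.58 and 4.86 in GZ libraries 1 to 3. All GZ values lay above all CP values, and WNT7A was 1.89-fold higher in GZ (log2 difference 0.91 ± 0.14 SE, n = 3 per tissue, limma adjusted p = 0.00187). It made up 31.8% ± 3.63 of the summed FPKM of the 12 ligands in CP and 44.2% ± 6.09 in GZ (SD, n = 3).

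WNT10B (ENSMMUG00000015705), a canonical ligand, was the ligand higher in CP. Its log2 FPKM was 1.45, 0.35 and 1.60 in CP and -0.53, -0.97 and -1.26 in GZ. Every GZ value was under 0, and the CP library numbered 2 was the lowest of the CP libraries. The difference was -2.05 ± 0.38 SE, a 4.15-fold higher level in CP (limma adjusted p = 0.0039, n = 3 per tissue), and this fold rests on low GZ values. In the gene order of the RefSeq assembly T2T-MMU8v2.0, WNT10B lies next to WNT1, the midbrain and dorsal midline ligand. WNT1 was low in all libraries, between -2.92 and -2.10 in CP and between -1.79 and -1.19 in GZ, and was not tested. The neighbours thus had mean differences of opposite sign, -2.05 for WNT10B and 1.04 for WNT1.

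The other 4 tested ligands did not pass. WNT3, a canonical ligand, had log2 FPKM of 2.62, 2.81 and 2.56 in CP and 3.66, 3.76 and 2.75 in GZ, so that GZ library 3 lay among the CP values (difference 0.72 ± 0.26 SE, limma adjusted p = 0.0506). WNT3 was called in 1 of 6 fits with a library left out, the one without GZ replicate 3 (1.04, limma adjusted p = 0.00119). Over these fits its limma adjusted p reached 0.156. Its neighbour in the same assembly, WNT9B, stayed between -2.72 and -1.58 in all libraries. WNT7B, the paralogue of WNT7A, had 1.88, 2.06 and 2.30 in CP and 1.95, 0.91 and 2.17 in GZ, with overlapping groups and a single low GZ library (difference -0.40 ± 0.32 SE, limma adjusted p = 0.344). WNT2B, a ligand known from dorsal midline tissue, differed by 0.31 ± 0.15 SE (limma adjusted p = 0.139), and WNT9A by -0.02 ± 0.15 (limma adjusted p = 0.929).

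The remaining 6 ligands were under the limit on low values. WNT8B, a ligand of the cortical hem, had -0.99, -1.13 and -1.77 in CP and -2.34, -3.19 and -1.98 in GZ. Its groups did not overlap, but its level was low everywhere. In a fit to all 22345 genes without a limit, the limma adjusted p was 0.0515 for WNT8B and 0.0526 for WNT1. WNT5B, WNT8A, WNT9B and WNT16 had overlapping groups.

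The receptors held the gene with the largest difference towards GZ. Of 9 tested receptor genes 4 were higher in GZ, 2 higher in CP and 3 did not pass. Over all genes tested the shares were 24.5% towards GZ and 20.9% towards CP, and 9 genes are few to compare with them. FZD2 (ENSMMUG00000011038), a Frizzled receptor, had log2 FPKM of 2.21, 1.70 and 1.95 in CP and 3.67, 3.96 and 3.85 in GZ. The lowest GZ value was 1.46 above the highest CP value. FZD2 was 3.66-fold higher in GZ (1.87 ± 0.16 SE, n = 3 per tissue, limma adjusted p = 0.000163). FZD8 (ENSMMUG00000001694), a Frizzled receptor of cortical progenitors, had 1.51, 0.36 and 0.82 in CP and 1.60, 2.05 and 2.20 in GZ, so that CP library 1 nearly reached GZ library 1. It was 2.08-fold higher in GZ (1.05 ± 0.31 SE, limma adjusted p = 0.0263). FZD8 was no longer called when library 2 or 3 of either tissue was left out (limma adjusted p from 0.0685 to 0.0751), and without both libraries numbered 1 the difference was 1.54 (limma adjusted p = 0.0143).

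Both co-receptors of the canonical branch were higher in GZ. LRP5 (ENSMMUG00000031237) had log2 FPKM of 4.49, 4.34 and 4.46 in CP and 5.16, 5.10 and 5.16 in GZ. These values spread little within a tissue, and LRP5 was 1.64-fold higher in GZ (0.71 ± 0.08 SE, n = 3 per tissue, limma adjusted p = 0.000499). LRP6 (ENSMMUG00000023317) had 3.45, 2.88 and 3.47 in CP and 4.15, 3.88 and 4.30 in GZ, with CP library 2 the lowest. It was 1.79-fold higher in GZ (0.84 ± 0.19 SE, limma adjusted p = 0.00816).

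FZD9 and FZD4 were higher in CP. FZD9 (ENSMMUG00000047984), a Frizzled receptor, had log2 FPKM of 1.55, 1.58 and 0.95 in CP and -0.15, 0.02 and -0.15 in GZ. Its GZ values lay close together near 0, and it was 2.74-fold higher in CP (-1.45 ± 0.24 SE, n = 3 per tissue, limma adjusted p = 0.00235). FZD4 (ENSMMUG00000004048), the receptor of norrin and of Wnt signals in brain endothelium, had 2.91, 2.82 and 2.83 in CP and 2.15, 1.92 and 2.18 in GZ. The CP values were nearly equal, and FZD4 was 1.71-fold higher in CP (-0.77 ± 0.14 SE, limma adjusted p = 0.00336). Markers of endothelium and pericytes were also higher in CP (summed FPKM 96.7 to 137 against 22.5 to 49.4, 6 of 6 genes), and their part in the FZD4 result was not tested. FZD6 had 1.87, 1.98 and 2.67 in CP and 1.69, 0.92 and 1.71 in GZ, without overlap, and did not pass (-0.73 ± 0.29 SE, limma adjusted p = 0.075). FZD3, known from axon tract formation, and FZD7 did not pass either (0.45 ± 0.17 and 0.47 ± 0.29 SE, limma adjusted p = 0.0682 and 0.22). FZD10 was between -1.16 and -0.45 in all libraries and was not tested.

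The same levels can be read as the make-up of the Frizzled family. FZD3 was the most abundant of the 8 measured members in every library, with 40.5% ± 2.92 of their summed FPKM in CP and 41.8% ± 1.62 in GZ (SD, n = 3). In CP the next was FZD4 with 18.0% ± 2.19, which had 7.99% ± 0.83 in GZ. In GZ the next was FZD2 with 26.8% ± 4.01, which had 9.63% ± 0.79 in CP. FZD6 had 11.5% ± 3.21 in CP and 5.21% ± 1.33 in GZ. These shares rest on the same values as the tests above and were not tested themselves.

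**Figure D2:**
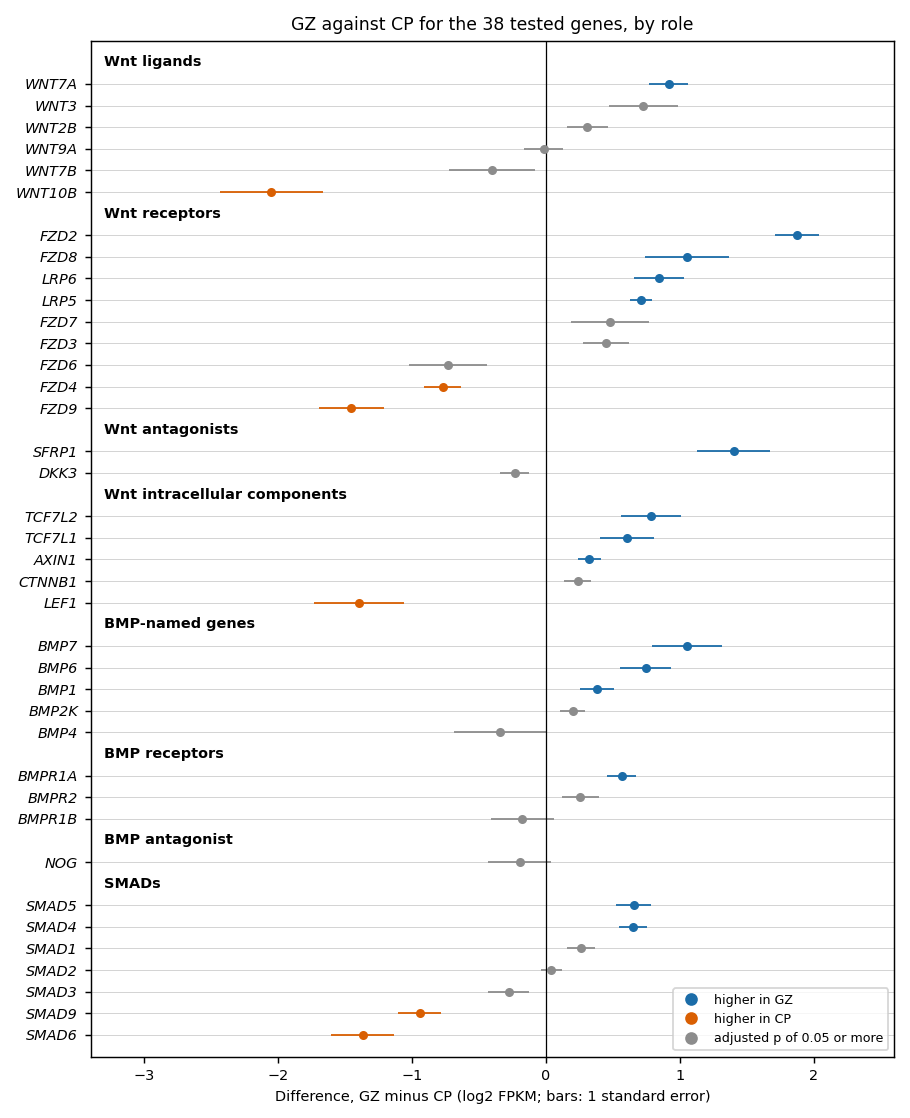
Difference in normalized expression, GZ minus CP (horizontal axis, log2 FPKM), for the 38 tested genes by role, with bars of 1 standard error from limma. Blue genes were higher in GZ, orange genes higher in CP and grey genes did not pass; FZD2 lies farthest to the right at 1.87 and WNT10B farthest to the left at -2.05.

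Among secreted Wnt antagonists the level was high for SFRP1 and DKK3 and low for the others. SFRP1 (ENSMMUG00000019082), a soluble Frizzled-related protein made by radial glia, had log2 FPKM of 5.61, 4.43 and 4.78 in CP and 6.08, 6.46 and 6.48 in GZ. CP library 1 stood above the other CP libraries, and the groups did not overlap. SFRP1 was 2.64-fold higher in GZ (1.40 ± 0.27 SE, n = 3 per tissue, limma adjusted p = 0.00458). Of 5 radial glia markers 3 were higher in GZ and 2 did not pass (summed FPKM 250.7 to 342 in CP and 295 to 332 in GZ), and their part in the SFRP1 result was not tested.

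DKK3 (ENSMMUG00000022862), a Dickkopf family member that differs from the others in its action on Wnt signalling, had 6.35, 6.39 and 6.25 in CP and 6.34, 6.0 and 5.96 in GZ. GZ library 1 lay among the CP values, and DKK3 did not pass (-0.23 ± 0.11 SE, limma adjusted p = 0.116). It was called in 1 of 6 fits with a library left out, the one without GZ replicate 1 (-0.35, limma adjusted p = 0.0219). Over these fits its limma adjusted p reached 0.282. SFRP1 made up 27.6% ± 8.47 of the summed FPKM of the 6 measured antagonists in CP and 53.3% ± 7.51 in GZ, and DKK3 70.6% ± 8.34 and 45.0% ± 7.13 (SD, n = 3). The classical LRP inhibitors DKK1 and DKK4 were under 0 in every library, from -1.99 to -1.31 and from -3.43 to -1.53. SFRP2 and SFRP4 also had means under 0 and overlapping groups. These 4 genes were not tested.

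**Figure D3:**
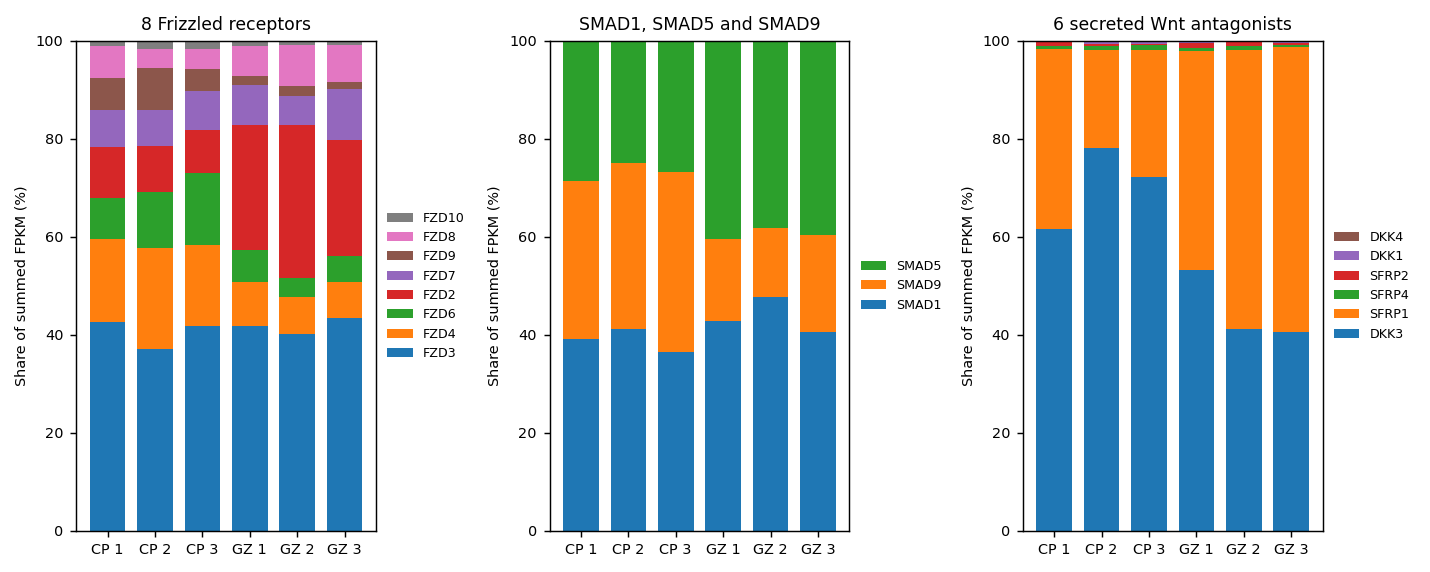
Share of the summed FPKM (vertical axis, %) taken by each measured Frizzled receptor, by SMAD1, SMAD5 and SMAD9, and by each secreted Wnt antagonist, as stacked bars for each of the 6 libraries. FZD2 takes a mean of 9.63% in CP and 26.8% in GZ, SMAD9 34.3% and 16.8%, and SFRP1 27.6% and 53.3%.

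Within the cell, the TCF/LEF factors split. LEF1 (ENSMMUG00000023256), a nuclear partner of beta-catenin and at the same time a target of the pathway, had log2 FPKM of 2.37, 3.18 and 3.45 in CP and 2.09, 1.08 and 1.64 in GZ. The groups did not overlap, and the libraries numbered 1 came closest to each other, 0.28 apart. LEF1 was 2.63-fold higher in CP (-1.40 ± 0.34 SE, n = 3 per tissue, limma adjusted p = 0.0115), and without both libraries numbered 1 the difference was -1.95 (limma adjusted p = 0.00697). LEF1 is also known from brain endothelium, whose markers were higher in CP as given above, and their part in the LEF1 result was not tested.

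TCF7L2 (ENSMMUG00000022799) and TCF7L1 (ENSMMUG00000020134), of which the latter acts mainly as a repressor, were higher in GZ. TCF7L2 had log2 FPKM of 2.18, 2.13 and 2.22 in CP and 3.44, 2.90 and 2.54 in GZ. The CP values were nearly equal and the GZ values spread over 0.45 (SD), with a 1.72-fold higher level in GZ (0.78 ± 0.22 SE, limma adjusted p = 0.0225). TCF7L1 was 1.52-fold higher in GZ (0.60 ± 0.20 SE, limma adjusted p = 0.0403). Both calls were lost without GZ replicate 1 and without any 1 of the CP replicates (limma adjusted p from 0.055 to 0.118), TCF7L1 also without GZ replicate 2 (0.132), and both without both libraries numbered 1 (0.122 for TCF7L2 and 0.166 for TCF7L1).

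CTNNB1 (ENSMMUG00000014627) was the most abundant of the 51 genes. Its log2 FPKM was 7.62, 7.46 and 7.72 in CP and 7.88, 7.66 and 7.96 in GZ, with overlapping groups. The difference of 0.24 ± 0.10 SE did not pass (limma adjusted p = 0.0949, n = 3 per tissue). CTNNB1 was called in 1 of 6 fits with a library left out, the one without GZ replicate 2 (0.32, limma adjusted p = 0.0364). Over these fits its limma adjusted p reached 0.253. AXIN1, the scaffold of the beta-catenin destruction complex, was 1.25-fold higher in GZ (0.32 ± 0.09 SE, limma adjusted p = 0.0173). This call was lost without GZ replicate 1 (limma adjusted p = 0.0782) and without both libraries numbered 1 (0.139).

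Of the genes named for BMPs, 3 of 5 tested were higher in GZ and 2 did not pass. The share higher in GZ was 24.5% over all genes tested, and 5 genes are few to compare with it. BMP7 (ENSMMUG00000004074), a ligand that acts on neural progenitors, was the most abundant BMP growth factor measured. Its log2 FPKM was 3.01, 2.05 and 2.02 in CP and 3.29, 3.44 and 3.51 in GZ. CP library 1 was about 1 log2 unit above the other CP libraries and closer to GZ, and BMP7 was 2.07-fold higher in GZ (1.05 ± 0.26 SE, n = 3 per tissue, limma adjusted p = 0.0133). Without both libraries numbered 1 the difference was 1.44 (limma adjusted p = 0.00613).

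BMP6 (ENSMMUG00000021600), a ligand of the same subgroup, had 0.78, 0.76 and 0.73 in CP and 1.36, 1.40 and 1.73 in GZ. It was 1.67-fold higher in GZ (0.74 ± 0.19 SE, limma adjusted p = 0.0141), and the call was lost without both libraries numbered 1 (0.82, limma adjusted p = 0.0675). BMP1 is not a BMP ligand but a protease that processes procollagens and the BMP inhibitor chordin. It was 1.30-fold higher in GZ (0.38 ± 0.13 SE, limma adjusted p = 0.0433), a call that held in 1 of 6 fits with a library left out, the one without GZ replicate 1 (limma adjusted p = 0.0423), and was lost without both libraries numbered 1 (0.0711). With all 6 libraries the BMP1 call was also lost under eBayes without trend (limma adjusted p = 0.0551) and with no limit on low values (0.0646). BMP2K, a kinase named for its induction by BMP2, differed by 0.20 ± 0.09 (SE, limma adjusted p = 0.118).

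BMP4, a ligand of the dorsal midline, had log2 FPKM of 0.98, 1.06 and -0.12 in CP and 0.06, 0.31 and 0.51 in GZ. Its groups overlapped and it did not pass (-0.34 ± 0.35 SE, limma adjusted p = 0.454). BMP3 and BMP5 were below the limit on low values and were not tested with the others. BMP3, an unusual family member that can act against other BMPs, had -2.33, -2.15 and -1.56 in CP and -0.34, -0.86 and -0.54 in GZ. BMP5 had -0.97, -0.83 and -0.54 in CP and -2.12, -1.67 and -1.37 in GZ. Neither gene's groups overlapped, and they lay in opposite directions. In the fit without a limit on low values, where 27.8% of 22345 genes were called (15.5% higher in GZ and 12.4% higher in CP), the limma adjusted p was 0.00738 for BMP3 and 0.0394 for BMP5.

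Of the BMP receptors, BMPR1A (ENSMMUG00000011852) was higher in GZ and the others did not pass. BMPR1A, a type I receptor active in neural progenitors, had log2 FPKM of 4.07, 3.83 and 3.86 in CP and 4.38, 4.45 and 4.62 in GZ, without overlap. BMPR1A was 1.48-fold higher in GZ (0.56 ± 0.11 SE, n = 3 per tissue, limma adjusted p = 0.00454). BMPR1B, the second type I receptor, had 1.18, 1.55 and 1.80 in CP and 1.35, 1.03 and 1.61 in GZ, with groups that overlapped (-0.18 ± 0.24 SE, limma adjusted p = 0.572). BMPR1A made up 83.9% ± 3.77 of the summed FPKM of the 2 type I receptors in CP and 89.8% ± 1.43 in GZ (SD, n = 3). BMPR2, the type II receptor, differed by 0.26 ± 0.14 SE (limma adjusted p = 0.169). NOG, which codes for the BMP antagonist noggin, had 1.86, 1.85 and 1.39 in CP and 1.20, 1.89 and 1.41 in GZ and did not pass (-0.20 ± 0.24 SE, limma adjusted p = 0.532).

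The SMADs of the BMP branch were called in both directions. SMAD5 (ENSMMUG00000000340), a receptor-regulated SMAD, had log2 FPKM of 3.77, 3.34 and 3.69 in CP and 4.23, 4.24 and 4.29 in GZ, and was 1.57-fold higher in GZ (0.65 ± 0.13 SE, n = 3 per tissue, limma adjusted p = 0.0049). SMAD9 (ENSMMUG00000009914), the third SMAD of the branch and one with weaker activity than the others, had 3.94, 3.77 and 4.15 in CP and 2.95, 2.79 and 3.29 in GZ. It was 1.92-fold higher in CP (-0.94 ± 0.16 SE, limma adjusted p = 0.00283). SMAD9 minus SMAD5, the difference of their log2 FPKM, was 0.17, 0.44 and 0.46 in CP libraries 1 to 3 and -1.28, -1.45 and -1.0 in GZ. SMAD9 thus exceeded SMAD5 in every CP library and was below it in every GZ library. SMAD1 had 4.22, 4.06 and 4.14 in CP and 4.31, 4.56 and 4.33 in GZ and did not pass (0.26 ± 0.10 SE, limma adjusted p = 0.0762). Of the summed FPKM of these 3 SMADs, SMAD9 took 34.3% ± 2.30 in CP and 16.8% ± 2.91 in GZ, and SMAD5 26.8% ± 1.78 and 39.4% ± 1.15 (SD, n = 3).

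SMAD4 (ENSMMUG00000018334), the common partner of all receptor-regulated SMADs, had log2 FPKM of 4.85, 4.69 and 5.02 in CP and 5.59, 5.51 and 5.39 in GZ. It was 1.57-fold higher in GZ (0.65 ± 0.10 SE, n = 3 per tissue, limma adjusted p = 0.00206). SMAD6 (ENSMMUG00000019018), an inhibitory SMAD that is itself induced by BMP signals and abundant in endothelium, had 0.83, 1.10 and 1.12 in CP and -0.45, -0.52 and -0.08 in GZ. It was 2.58-fold higher in CP (-1.37 ± 0.23 SE, limma adjusted p = 0.00264), and the fold rests on low GZ values. The endothelial and pericyte markers given above were higher in CP too, and their part in the SMAD6 result was not tested. SMAD2 and SMAD3, which serve the TGF-beta and activin branch, did not pass (0.04 ± 0.08 and -0.28 ± 0.15 SE, limma adjusted p = 0.718 and 0.177).

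The libraries numbered 1 were often the ones nearest the other tissue among these genes. Among the 21 called genes, CP library 1 was the CP value nearest the GZ mean in 13, CP library 2 in 3 and CP library 3 in 5. GZ library 1 was the GZ value nearest the CP mean in 11, GZ library 2 in 4 and GZ library 3 in 6. Such counts were not made over all genes tested, so they cannot show a trait of the Wnt and BMP genes. The summed FPKM of cycling cell markers in libraries 1 to 3 was 48.7, 25.5 and 30.01 in CP and 138, 192 and 91.1 in GZ. That of neuronal markers was 1453, 1391 and 1452 in CP and 840.0, 786 and 926 in GZ. CP library 1 thus had the highest CP sum in both lists, and GZ library 1 the middle GZ sum in both. The part of these cell types in the order of the libraries was not tested. Of the 21 calls, 16 held in each of the 6 fits with 1 library left out, and all but BMP6 of these 16 also held without both libraries numbered 1. Among those that held, the limma adjusted p without both was lower for BMP7, LEF1 and SFRP1 and higher for the rest. The highest were 0.048 for LRP6, 0.0437 for FZD4, 0.0394 for SMAD9 and 0.0377 for SMAD4. The 5 calls lost when a single library was left out were AXIN1, BMP1, FZD8, TCF7L1 and TCF7L2. How many of all called genes held in this way was not counted, so these numbers cannot show a trait of the Wnt and BMP genes.

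**Figure D4:**
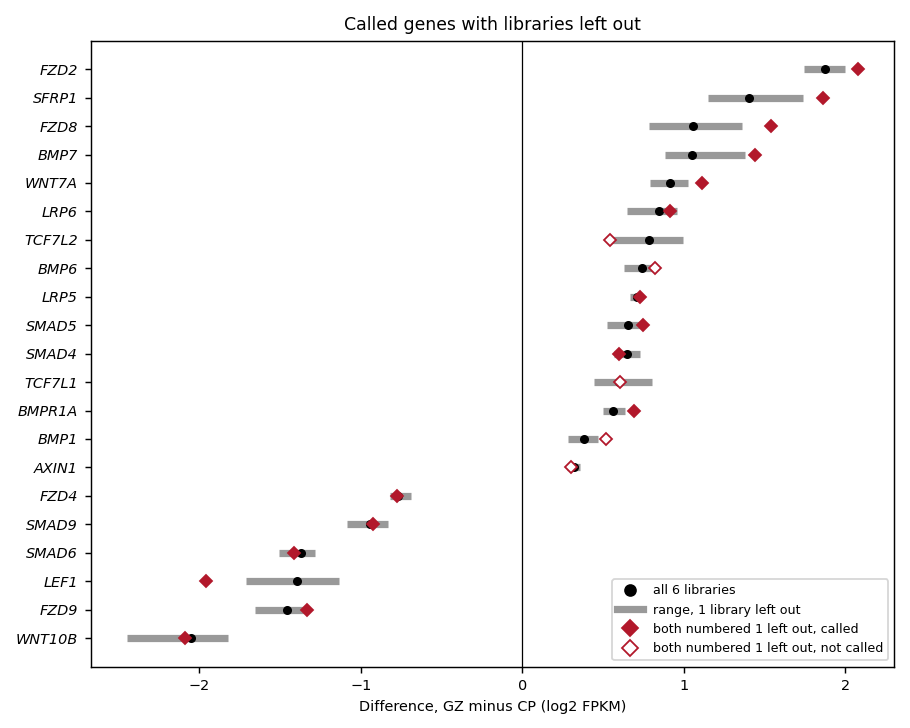
Difference in normalized expression, GZ minus CP (horizontal axis, log2 FPKM), of the 21 called genes with all 6 libraries (black points), the range over 6 fits that each left out 1 library (grey bars) and the value without both libraries numbered 1 (diamonds, filled where the gene was still called). No gene changes sign; FZD2 moves from 1.87 to 2.08 and LEF1 from -1.40 to -1.95 without the libraries numbered 1, and 5 diamonds are open.

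Other genes of the Wnt pathway were read from a list of 52, of which 43 were measured and 36 tested. In this list 15 of 36 (41.7%) were higher in GZ, 8 (22.2%) higher in CP and 13 did not pass, against 24.5% and 20.9% of all genes tested, with a median difference of 0.27 against 0.05 for all genes tested. Without both libraries numbered 1 the counts fell to 11 and 7 (12.2% and 12.7% of all genes tested). WIF1, RSPO3 and PRICKLE2, which are 3 of the 8 genes higher in CP, had a GZ mean under 0 and met the limit on low values only through CP, so they had to differ to be tested. The extracellular inhibitor WIF1 was 10.1-fold higher in CP (-3.34 ± 0.42 SE, limma adjusted p = 0.000756), with a GZ mean of -1.52. RSPO3, which codes for an R-spondin that strengthens Wnt signals, was 7.54-fold higher in CP (2.85 ± 0.26 against -0.06 ± 0.38, SD, n = 3, limma adjusted p = 0.000141). ROR2, a receptor of WNT5A, was 5.19-fold higher in GZ (2.38 ± 0.28 SE, limma adjusted p = 0.000598). PRICKLE2, a gene of planar cell polarity, was 4.72-fold higher in CP (-2.24 ± 0.23 SE, limma adjusted p = 0.00034).

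Other genes of the BMP and TGF-beta pathways came from a list of 45, with 33 measured and 27 tested. Of the 27, 10 (37.0%) were called towards GZ and 7 (25.9%) towards CP, against 24.5% and 20.9% of all genes tested, with a median difference of 0.05, the same as for all genes tested. Without both libraries numbered 1, 7 were called towards GZ and 6 towards CP (12.2% and 12.7% of all genes tested). BMPER, a secreted regulator that binds BMPs, was 4.83-fold higher in GZ (2.27 ± 0.19 SE, limma adjusted p = 0.000127). The activin type II receptor gene ACVR2B was 3.43-fold higher in GZ and ACVRL1, an endothelial type I receptor gene, 2.87-fold higher in CP (limma adjusted p = 0.00356 and 0.00813). ENG, its endothelial co-receptor, was 2.79-fold higher in CP (limma adjusted p = 0.00407). Vessel markers had the same direction, and their part in the ACVRL1 and ENG results was not tested.

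**Figure D5:**
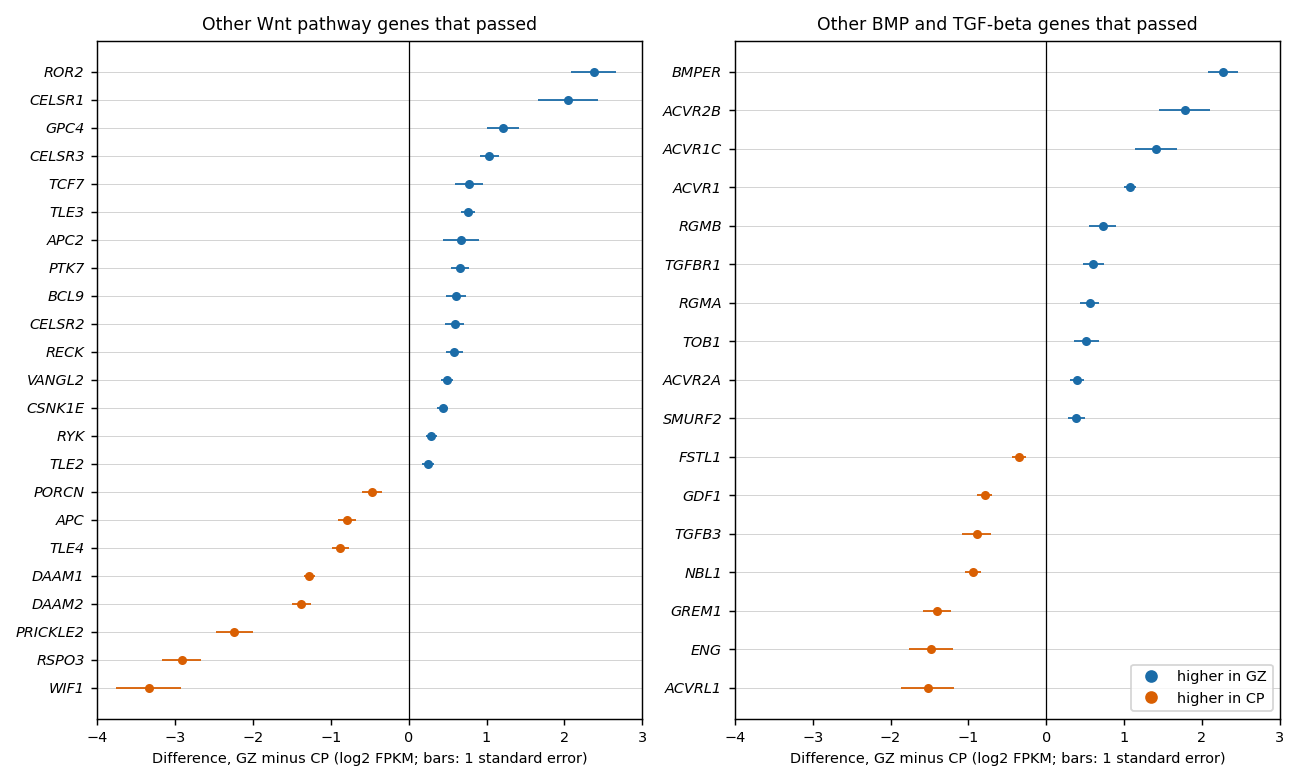
Difference in normalized expression, GZ minus CP (horizontal axis, log2 FPKM), with bars of 1 standard error from limma, for the called genes of the lists of other Wnt genes (left) and of other BMP and TGF-beta genes (right). Blue genes were higher in GZ and orange genes higher in CP; WIF1 lies farthest to the left at -3.34, and ROR2 and BMPER farthest to the right of their panels at 2.38 and 2.27.

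Genes known to respond to the pathways went in both directions. Of 8 tested Wnt response genes, CCND1 (2.35-fold), the feedback inhibitor NKD2 (2.53-fold) and MYC (1.97-fold) were higher in CP, AMOTL2 (2.28-fold) and TCF7 (1.71-fold) were higher in GZ, and 3 did not pass. For CCND1, the gene of cyclin D1, CP had a mean log2 FPKM of 4.78 ± 0.10 and GZ one of 3.55 ± 0.12 (SD, n = 3 per tissue, limma adjusted p = 0.000131), while all 4 markers of cycling cells were higher in GZ. TCF7, which was named after its values were seen, was not called without both libraries numbered 1 (limma adjusted p = 0.0897). Called towards CP were thus 3 of 8 (37.5%) and towards GZ 2 (25%), against 20.9% and 24.5% of all genes tested. When GZ library 3 was left out, 5 of the 8 were called towards CP, as were 21.2% of all genes in that fit. Of 7 tested BMP response genes, SMAD6 and ID3 (1.79-fold) were higher in CP, ATOH8 (2.98-fold) and ID2 (1.41-fold) were higher in GZ, and 3 did not pass. These were 2 of 7 (28.6%) in each direction, near the 24.5% towards GZ and 20.9% towards CP of all genes tested. ATOH8 had a CP mean under 0 (-0.72) and SMAD6 a GZ mean under 0, so that each met the limit on low values through 1 tissue only and had to differ to be tested. ID2 was not called without CP replicate 2 (limma adjusted p = 0.0526) or without both libraries numbered 1 (0.0666). Many of these genes also respond to other signals. TCF7 and ZNRF3 are also in the list of other Wnt genes, and SMAD6 is one of the 51 genes.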

How the data were processed

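The deposited RNA values are on a log2 FPKM scale, with conditional quantile normalization by the authors, per the labels, and 1 column per library. STAR and the build Mmul_8.0.1 are named in the submitters' processing notes, without roles; the sources used here do not name the read counter, strand setting or gene models. A reference table gave symbols for 14700 of 22345 gene identifiers (65.8%).

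Tested were the 13460 genes whose mean over all 6 libraries was at least 0, with limma 3.58.1 in R 4.3.3 (lmFit, eBayes with trend, two-sided, no block, no pseudocount), GZ minus CP, with Benjamini-Hochberg adjustment. The fit was run on simulated data with independent noise as a check of the code only. Those data held no shift shared by the genes of a library, so they cannot show how the fit deals with one. Genes set for full description were those called with a difference of at least 1, the called gene with the largest difference in each role, and 10 set by name, of which AXIN2 is not analysed here; values of further members are added as description. From each other list up to 4 called genes with the largest differences were named. The rule for the members works on names alone, but it and the lists were set with earlier results of these data known. Shares are of summed FPKM (2 to the power of the value). Figures used matplotlib 3.10.9. Equal library numbers in GZ and CP were not taken as pairs: deviations from the tissue means correlated at 0.30 and 0.35 for numbers 2 and 3 but at -0.38 for number 1. Alternatives were a fit with the library number as a block, no limit or a limit of 1 on the mean, adding 1 to each FPKM, centring on medians, quantile normalization, eBayes robust or without trend, and fits with libraries left out. Hi-C, DNase and CTCF files were not used, because their regions could not be assigned to genes here.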

Additional observations from a re-analysis of the deposited data

How the results depend on the processing

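Over the 6 fits that left out 1 library each, 11 to 14 of the 38 Wnt and BMP genes were higher in GZ and 6 to 7 higher in CP. In the same order, these fits gave 2261 to 3146 and 2243 to 2855 for all genes tested, 13 to 16 and 7 to 8 for other Wnt genes, 8 to 10 and 6 to 9 for other BMP and TGF-beta genes, 2 to 2 and 3 to 5 for Wnt response genes, and 1 to 2 and 2 to 2 for BMP response genes. A limit of 1 on the mean left 34 of the 38 genes and 3 higher in CP (21.6% of all genes then tested), since WNT10B, SMAD6 and FZD9 were no longer tested, and it left 1 BMP response gene higher in each tissue. Without both libraries numbered 1, in a fit with fewer samples, 1647 of all genes tested were higher in GZ and 1716 in CP, and 1 Wnt response gene and 1 BMP response gene were higher in GZ. With no limit on low values 15 of the 51 genes were higher in GZ and 7 in CP (15.5% and 12.4% of all 22345 genes). With the replicate block, 18 of the 38 genes were higher in GZ and 7 in CP (24.5% and 20.9% of all genes tested); FZD3, WNT3 and CTNNB1 were then also called towards GZ and FZD6 towards CP. Not every library correlated best with its own number. Quantile normalization also called WNT3 (limma adjusted p = 0.0486). Direction changed in 3 genes that did not pass. NOG reached 0.032 without both libraries numbered 1. SMAD2 ranged from -0.0036 to 0.067 over the fits with 1 library left out and was below 0 without CP replicate 2 (-0.0027) or GZ replicate 3. WNT9A ranged from -0.14 to 0.056 and was above 0 when CP library 2 (0.05) or 3 (0.03), or GZ library 2, was left out. With 3 libraries per tissue and unknown read depth, the smallest difference called among the 38 genes was 0.32 (AXIN1).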
